A study of Homo sapiens with 6 samples.

Results

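The messenger RNAs of cholesterol synthesis, of its control by SREBP2, of sterol trafficking, and of liver X receptor (LXR) signalling and sterol efflux were measured in leukemia cells transduced with guides against COX4I1. The group holds 32 of the 19845 gene symbols in the count table, chosen by symbol and ordered in 6 steps, with 7 genes of the early mevalonate pathway, 3 genes from squalene to lanosterol, 9 genes from lanosterol to cholesterol, 4 genes of SREBP2 control, 4 genes of sterol trafficking and esterification, and 5 genes of LXR signalling and efflux. RNA came from 6 libraries of Molm13, a human acute myeloid leukemia line with a rearranged MLL gene (MLL-r), and every library carried the Cas9 nuclease, a guide in the ipUSEPR vector and puromycin selection. Of these, 3 libraries (sgCtrl) received control guides and 3 (sgCOX4I1) received guides against COX4I1, a nuclear-encoded subunit of mitochondrial Complex IV. Each library carried a different guide, and all came from 1 cell line, so the spread within a group includes differences between guides. No isolation of clones is described, and the share of edited cells was not measured here.

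Cells make cholesterol from acetyl-CoA through mevalonate, the isoprenoid farnesyl diphosphate, squalene and lanosterol. The transcription factor SREBP2, encoded by SREBF2, switches on most of these enzymes together with lipoprotein uptake when the endoplasmic reticulum runs low in sterol, and it is held back there by the INSIG proteins, which retain its escort SCAP when sterol is plentiful. In the opposite state, oxysterols activate the LXR receptors, which raise efflux transporters such as ABCA1 and the ubiquitin ligase MYLIP, and MYLIP in turn lowers lipoprotein uptake by sending lipoprotein receptors for degradation.

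Total counts ran from 17241014 to 30861943 per library, and a count of 0 then allows a level of up to 0.0959 to 0.174 CPM, from counting error only. CPM are counts scaled to the depth of the library after edgeR's TMM normalization. All 7 markers of the line were detected in every library, including CD33, FLT3, HOXA9 and MEIS1. The T cell marker CD3D, the erythroid markers HBB and HBA1, and the epithelial and liver markers EPCAM and ALB had 0 counts in each of the 6 libraries. Other markers were present at low level, with KRT18 between 6.86 and 13.8 CPM, whereas CD4 stood at 227 to 248 CPM.

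COX4I1 itself, on chromosome 16, measured 513, 502 and 463 CPM in sgCtrl #1, #2 and #3. In sgCOX4I1 #1, #2 and #3 it measured 132, 378 and 133 CPM. The sgCOX4I1 #2 library thus kept 76.7% of the sgCtrl mean, and the other libraries of that group kept 26.7% and 27.0%. These are mRNA values and do not rank the guides by COX4I1 protein, which the paper reports as reduced on immunoblots of Molm13-Cas9 cells. In edgeR's quasi-likelihood fit over all genes, the COX4I1 log2 fold change was -1.21 with a standard error (SE) of 0.29 and an adjusted p of 0.0512 (Benjamini-Hochberg over the genes tested). It was -1.89 without sgCOX4I1 #2 (adjusted p = 3.37e-06 by edgeR) and -0.95 without sgCOX4I1 #1 or #3 (adjusted p = 0.0773 and 0.125). The adjusted p was 0.0193, 0.272 and 0.0372 by edgeR without sgCtrl #1, #2 and #3. It was 0.247 by DESeq2 and 0.0291 by limma-voom. By edgeR it was 0.000205 without a filter on low counts and 0.000176 with a block of guide numbers.

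Across the sterol genes, MYLIP and INSIG1 fell in sgCOX4I1 cells, and no other of the 30 members tested passed an adjusted p of 0.05. MYLIP fell by 40.4% and INSIG1 fell by 33.2%, so neither reached a 2-fold change. The remaining members moved less, with 20 of them lower and 8 higher, and log2 fold changes between -0.35 and 0.49. Of these directions, that of NR1H2 at -0.0074 turned when libraries were scaled by size without TMM (0.0057). The counts of members stand against all 11861 genes tested, of which 2.08% were called in either direction, 1.02% lower and 1.06% higher, and 0.202% were called with at least a 2-fold change. The sgCOX4I1 libraries were all below the lowest sgCtrl library in 12 of the 30 members, against 10.4% of all genes, and all above the highest in 2 members, against 11.2% of all genes. An unadjusted p under 0.05 was reached by 11 members that were lower and 1 that was higher, against 8.41% and 8.9% of all genes. The members were chosen with earlier results of these data known. The shares over all genes, here and below, are therefore not an independent comparison. Because these are bulk libraries, less of an mRNA in every cell and loss of it in part of the cells cannot be told apart.

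**Figure D1:**
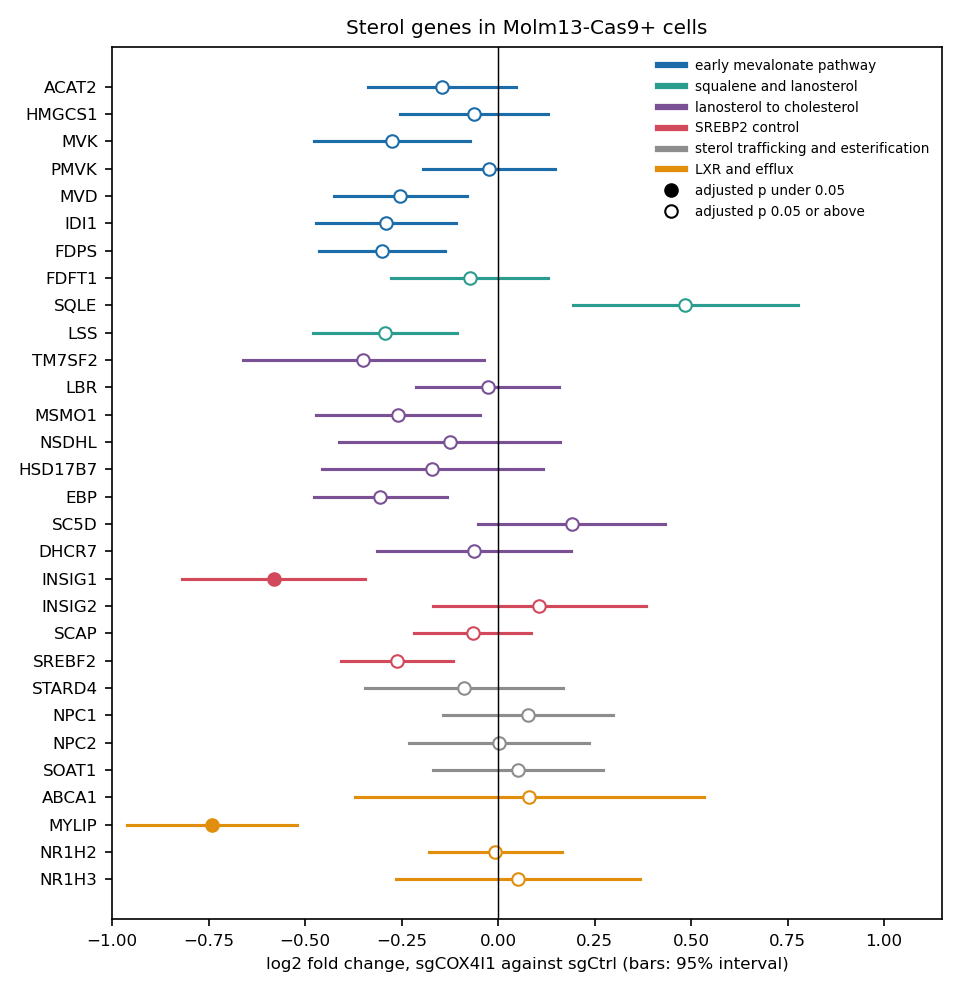
The plot of changes shows the log2 fold change of sgCOX4I1 against sgCtrl for the 30 members tested, with one row per gene, bars for the 95% interval of the edgeR fit, colours for the pathway step and filled points for an adjusted p under 0.05. MYLIP at -0.74 and INSIG1 at -0.58 are the filled points, and SQLE at 0.49 lies farthest to the right.

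The early mevalonate pathway runs from acetyl-CoA units to farnesyl diphosphate, and all 7 of its genes were lower in sgCOX4I1 cells, with 0 of the 7 called. The log2 fold changes ran from -0.30 to -0.02 with a median of -0.25, beside a median of -0.0023 over all genes tested. FDPS, which makes farnesyl diphosphate and had the smallest p of this step, measured 225, 229 and 205 CPM in sgCtrl #1, #2 and #3. It measured 189, 171 and 175 CPM in sgCOX4I1 #1, #2 and #3, so the groups did not overlap. The FDPS log2 fold change was -0.30 (SE 0.08, 95% interval -0.46 to -0.14, edgeR adjusted p = 0.0588), and it ran from -0.35 without sgCtrl #3 (edgeR adjusted p = 0.0416) to -0.27 without sgCtrl #2 (edgeR adjusted p = 0.288). An antisense gene covers 18.6% of the exonic bases of FDPS, and the strand setting of the counting is not given in the sources used here. Genes on the other strand also cover 37.7% of the exonic bases of HMGCS1, 22.2% of ACAT2, 15.0% of IDI1 and 22.1% of NR1H2.

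Separation of the groups was also seen for IDI1, the isomerase that makes the activated isoprene unit, at a log2 fold change of -0.29 (adjusted p = 0.0939 by edgeR), with 92.1 ± 8.2 CPM in sgCtrl and 75.3 ± 4.9 CPM in sgCOX4I1 (mean ± SD, n = 3). MVK, which phosphorylates mevalonate, measured 41.8 ± 3.7 CPM in sgCtrl and 34.6 ± 2.4 CPM in sgCOX4I1 (mean ± SD, n = 3), a log2 fold change of -0.28. MVD, which decarboxylates the mevalonate diphosphate, measured 59.1 ± 3.6 CPM in sgCtrl and 49.6 ± 2.2 CPM in sgCOX4I1 (mean ± SD, n = 3), a log2 fold change of -0.25. Overlap between the groups was seen for the remaining 3 genes. HMGCS1, the synthase that makes HMG-CoA and a standard SREBP2 target, measured 97.7, 80.5 and 84.2 CPM in sgCtrl #1, #2 and #3, compared with 90.7, 78.6 and 82.0 CPM in sgCOX4I1 #1, #2 and #3. Within each group the #1 library was the highest for HMGCS1, and the log2 fold change was -0.06 with a 95% interval from -0.25 to 0.13. ACAT2, the cytosolic thiolase at the entry of the pathway, had a log2 fold change of -0.15, and PMVK, the second kinase, one of -0.02.

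From squalene to lanosterol, the members differed in direction. SQLE, the squalene epoxidase that is a control point of the pathway, measured 23.4, 16.9 and 16.4 CPM in sgCtrl #1, #2 and #3. In sgCOX4I1 #1, #2 and #3 it measured 28.1, 23.5 and 27.6 CPM. The lowest sgCOX4I1 library lay just above sgCtrl #1, while the other sgCtrl libraries were well below. SQLE had a log2 fold change of 0.49 (SE 0.14, 95% interval 0.19 to 0.78, edgeR adjusted p = 0.0832), the highest among the members. Its value depends on the sgCtrl libraries, with a log2 fold change of 0.67 without sgCtrl #1 (adjusted p = 0.00472 by edgeR), 0.41 without sgCtrl #2 (adjusted p = 0.357) and 0.39 without sgCtrl #3 (adjusted p = 0.176).

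LSS, the cyclase that closes the sterol ring, measured 76.9, 87.2 and 70.1 CPM in sgCtrl #1, #2 and #3, compared with 64.1, 61.4 and 65.3 CPM in sgCOX4I1 #1, #2 and #3. The sgCOX4I1 libraries lay close together and below all sgCtrl libraries, with a log2 fold change of -0.29 (adjusted p = 0.0979 by edgeR) that ran from -0.36 without sgCtrl #3 (adjusted p = 0.0460) to -0.21 without sgCtrl #2 (adjusted p = 0.391). FDFT1, the squalene synthase that commits farnesyl diphosphate to sterols, measured 190 ± 24 CPM in sgCtrl and 181 ± 15 CPM in sgCOX4I1 (mean ± SD, n = 3), and its groups overlapped. On a scale of CPM per kilobase of exonic bases, which allows levels to be set side by side between genes, SQLE stood at 4.40 in sgCtrl, below LSS at 10.8 and FDFT1 at 37.4. In sgCOX4I1 the same levels were 6.13 for SQLE, 8.79 for LSS and 35.6 for FDFT1.

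**Figure D2:**
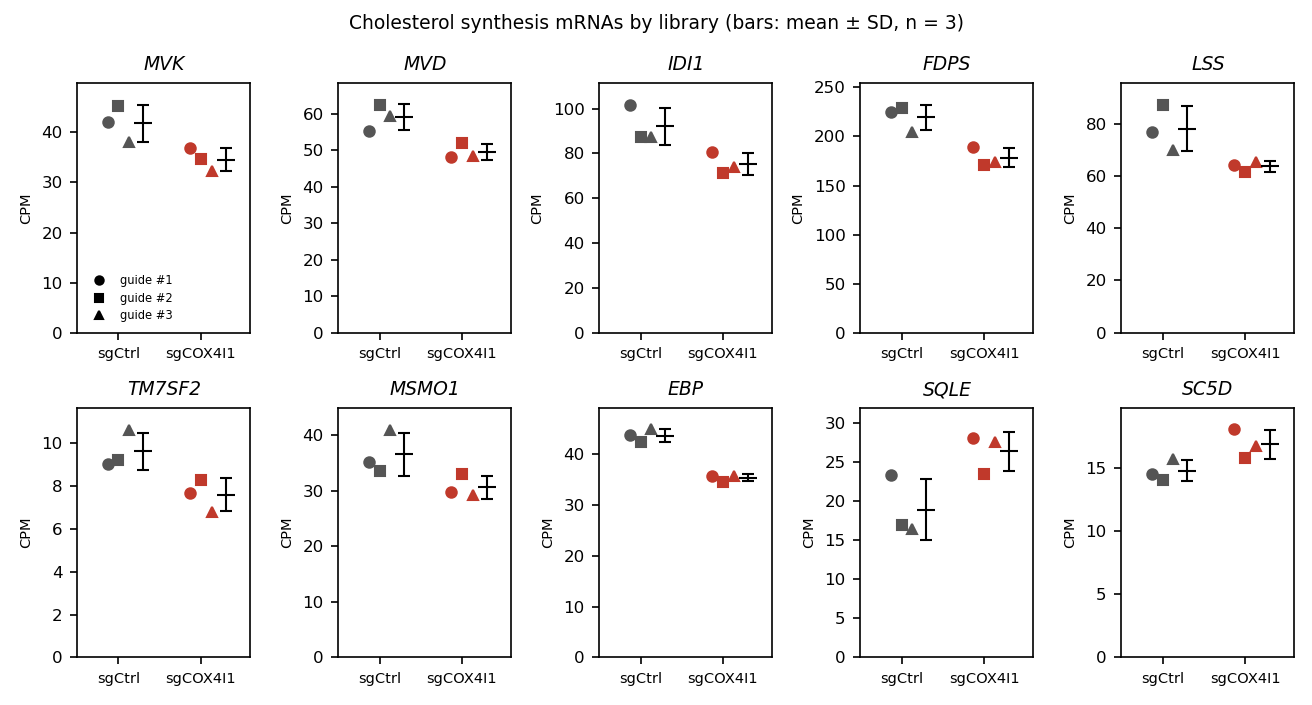
The plot of synthesis genes by library gives CPM on a linear axis from 0 for the 10 synthesis genes whose groups did not overlap, with grey points for sgCtrl, red points for sgCOX4I1, one shape per guide number, and mean ± SD beside them (n = 3). The red points lie below all grey points in MVK, MVD, IDI1, FDPS, LSS, TM7SF2, MSMO1 and EBP, and above them in SQLE and SC5D.

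Among the 9 genes from lanosterol to cholesterol, 8 were tested and 7 of these were lower in sgCOX4I1 cells, at a median of -0.15 (log2) and with 0 called. EBP, the sterol isomerase, had the smallest p of the step and measured 43.7, 42.4 and 44.95 CPM in sgCtrl #1, #2 and #3. It measured 35.8, 34.5 and 35.7 CPM in sgCOX4I1 #1, #2 and #3. Both groups were narrow and well apart, with a log2 fold change of -0.31 (SE 0.08, edgeR adjusted p = 0.0659). Another annotated gene of the same strand shares 36.4% of the exonic bases of EBP, so reads could have been split between them or left out. TM7SF2, a sterol reductase, measured 9.63 ± 0.86 CPM in sgCtrl and 7.61 ± 0.76 CPM in sgCOX4I1 (mean ± SD, n = 3), a log2 fold change of -0.35. MSMO1, an oxidase that removes methyl groups from the sterol ring, measured 36.6 ± 3.9 CPM in sgCtrl and 30.6 ± 2.0 CPM in sgCOX4I1 (mean ± SD, n = 3), a log2 fold change of -0.26.

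SC5D, the desaturase that acts late in the pathway, was the only tested gene of this step with a higher level, at 14.6, 14.1 and 15.7 CPM in sgCtrl #1, #2 and #3, compared with 18.1, 15.8 and 16.7 CPM in sgCOX4I1 #1, #2 and #3. Its groups were separated only narrowly, with a log2 fold change of 0.19 and a 95% interval from -0.05 to 0.43. Groups overlapped in HSD17B7 and NSDHL, enzymes of the demethylation steps, at log2 fold changes of -0.17 and -0.12. They also overlapped in DHCR7, which carries out a final reduction, at -0.06 and in LBR, a sterol reductase of the inner nuclear membrane, at -0.03. CYP51A1, the lanosterol demethylase, had 2 to 9 counts per library and was not tested. Since 68.2% of its exonic bases are shared with 2 other annotated genes of the same strand, its level in these cells is uncertain.

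Among the genes of SREBP2 control, INSIG1 fell in sgCOX4I1 cells. Its locus is chr7:155297776-155310235, plus strand (GRCh38, GENCODE 44). INSIG1, the sterol-regulated anchor that keeps SCAP and SREBP2 in the endoplasmic reticulum and is itself a SREBP2 target, measured 155, 126 and 134 CPM in sgCtrl #1, #2 and #3. In sgCOX4I1 #1, #2 and #3 it measured 107, 77.6 and 92.2 CPM. The highest sgCOX4I1 library lay below the lowest sgCtrl library, and sgCOX4I1 #2, the library that kept the most COX4I1 mRNA, was the lowest. The log2 fold change was -0.58 (SE 0.11, 95% interval -0.82 to -0.34, edgeR adjusted p = 0.0183). This call depends on single libraries, since the adjusted p was 0.10 without sgCtrl #2, 0.10 without sgCOX4I1 #2 and 0.0541 without sgCOX4I1 #3, at log2 fold changes of -0.64, -0.47 and -0.58.

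SREBF2, which encodes SREBP2, measured 237.2, 239.5 and 246.9 CPM in sgCtrl #1, #2 and #3, compared with 202.5, 199.0 and 202.4 CPM in sgCOX4I1 #1, #2 and #3. The groups were tight and separate, and the sgCOX4I1 libraries kept 84.0%, 82.5% and 83.9% of the sgCtrl mean, with a log2 fold change of -0.26 (SE 0.07, edgeR adjusted p = 0.0631). INSIG2, a paralog of INSIG1, measured 10.4, 9.99 and 9.92 CPM in sgCtrl #1, #2 and #3, compared with 11.8, 9.88 and 10.9 CPM in sgCOX4I1 #1, #2 and #3, which overlapped. Its log2 fold change of 0.11 had a 95% interval from -0.17 to 0.38. SCAP, the sterol-sensing escort of SREBP2, measured 77.8 ± 1.3 CPM in sgCtrl and 74.3 ± 1.8 CPM in sgCOX4I1 (mean ± SD, n = 3), a log2 fold change of -0.07 with groups that did not overlap. The SCAP gap was narrow, from 75.9 CPM in sgCOX4I1 #3 to 76.6 CPM in sgCtrl #1, and the 95% interval ran from -0.22 to 0.09. Per kilobase of exonic bases, the sgCtrl level was 37.9 CPM for INSIG1, 29.95 for SREBF2, 12.4 for SCAP and 2.56 for INSIG2.

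Promoter sequence was examined because INSIG1 and SREBF2 are themselves known targets of SREBP2. No LXR motif was searched, so the windows do not bear on MYLIP as a target of LXR. RefSeq promoter windows of GRCh38.p14, from 250 bases before to 50 bases after a transcription start, were matched for 28 of the 32 members, in 38 windows. On either strand, the letters CACNCCAC, a core of the sterol response element bound by SREBP, occurred in 6 of the 38 member windows (15.8%), against 5.98% of 13569 windows of tested genes and 5.87% of all 35116 windows. These 6 windows belong to IDI1, SC5D, INSIG1, SREBF2 and ABCA1, with a pair of overlapping windows for SC5D. The letters CCAAT, the box bound by NF-Y, occurred in 57.9% of member windows and 34.6% of windows of tested genes, and the GC box GGGCGG in 86.8% and 65.5%. A match describes these letters only and does not show a bound site. Stretches of the INSIG1, SREBF2 and MYLIP promoters are shown because INSIG1 and MYLIP are the called genes and SREBF2 encodes the factor, 5′ to 3′ on the plus strand, on which all 3 genes lie, with matches to any of the 3 motifs on either strand in capitals. They cover chr7:155297658-155297775, chr22:41832955-41833054 and chr6:16128906-16129055, each ending before both the RefSeq start and the gene's first base in GENCODE 44, which for INSIG1 lies upstream of the RefSeq start.
INSIG1: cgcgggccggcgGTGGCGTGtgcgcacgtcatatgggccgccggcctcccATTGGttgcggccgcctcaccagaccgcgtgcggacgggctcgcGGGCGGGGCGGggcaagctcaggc
SREBF2: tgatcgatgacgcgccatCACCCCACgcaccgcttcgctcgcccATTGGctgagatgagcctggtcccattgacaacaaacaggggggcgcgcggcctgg
MYLIP: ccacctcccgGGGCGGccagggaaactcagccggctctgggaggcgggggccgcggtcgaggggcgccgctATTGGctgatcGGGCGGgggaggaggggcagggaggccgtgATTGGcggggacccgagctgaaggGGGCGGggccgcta
The sterol response element letters begin at position -208 of INSIG1, read on the minus strand, and at position -132 of SREBF2, read on the plus strand, counted from the RefSeq transcription start. In both promoters a CCAAT box on the minus strand follows, at position -170 in INSIG1 and -106 in SREBF2. The MYLIP stretch holds 2 CCAAT boxes on the minus strand and 3 GC boxes, and no CACNCCAC letters occur in the MYLIP window.

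The 4 genes of sterol trafficking and esterification differed little between the groups, with log2 fold changes from -0.09 to 0.08 and overlapping libraries in each. STARD4, a soluble sterol carrier and SREBP2 target, measured 26.0, 25.4 and 25.0 CPM in sgCtrl #1, #2 and #3, compared with 25.8, 19.2 and 26.5 CPM in sgCOX4I1 #1, #2 and #3. The sgCOX4I1 #2 library stood below the others, and the log2 fold change was -0.09 with a 95% interval from -0.35 to 0.17. NPC1 and NPC2, the membrane and luminal proteins that pass cholesterol out of the lysosome, had log2 fold changes of 0.08 and 0.0028. SOAT1, which esterifies cholesterol for storage, had one of 0.05 with a 95% interval from -0.17 to 0.27.

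In LXR signalling and efflux, MYLIP fell while ABCA1 and both receptors did not pass the test. MYLIP, at chr6:16129086-16148248, plus strand (GRCh38, GENCODE 44), measured 60.5, 62.5 and 72.1 CPM in sgCtrl #1, #2 and #3. In sgCOX4I1 #1, #2 and #3 it measured 39.9, 33.4 and 43.0 CPM, or 61.3%, 51.4% and 66.2% of the sgCtrl mean. Every sgCOX4I1 library was far below the lowest sgCtrl library, again with sgCOX4I1 #2 the lowest. The log2 fold change was -0.74 (SE 0.10, 95% interval -0.96 to -0.52, edgeR adjusted p = 0.00296). It was -0.65 without sgCOX4I1 #2 (adjusted p = 0.0267 by edgeR).

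ABCA1, which transfers cholesterol to apolipoproteins at the cell surface and is a standard LXR target, measured 8.23, 9.99 and 14.8 CPM in sgCtrl #1, #2 and #3, compared with 10.1, 9.71 and 14.9 CPM in sgCOX4I1 #1, #2 and #3. The #3 library was the highest in both groups, and the log2 fold change of 0.08 had a wide 95% interval from -0.37 to 0.53. ABCG1, a transporter that passes cholesterol to lipoprotein particles, had 0 counts in all 6 libraries. NR1H2, the widely expressed receptor LXR beta, measured 63.8, 62.2 and 55.7 CPM in sgCtrl #1, #2 and #3, compared with 62.1, 61.2 and 57.4 CPM in sgCOX4I1 #1, #2 and #3, a log2 fold change of -0.0074 with a 95% interval from -0.18 to 0.17. NR1H3, the receptor LXR alpha, measured 8.50, 10.2 and 10.4 CPM in sgCtrl #1, #2 and #3, compared with 8.51, 10.9 and 10.8 CPM in sgCOX4I1 #1, #2 and #3. In both groups the #1 library was the lowest for NR1H3, and the log2 fold change was 0.05 with a 95% interval from -0.27 to 0.37. Per kilobase of exonic bases, NR1H2 stood at 11.3 CPM in sgCtrl, NR1H3 at 2.14 and ABCA1 at 0.972.

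**Figure D3:**
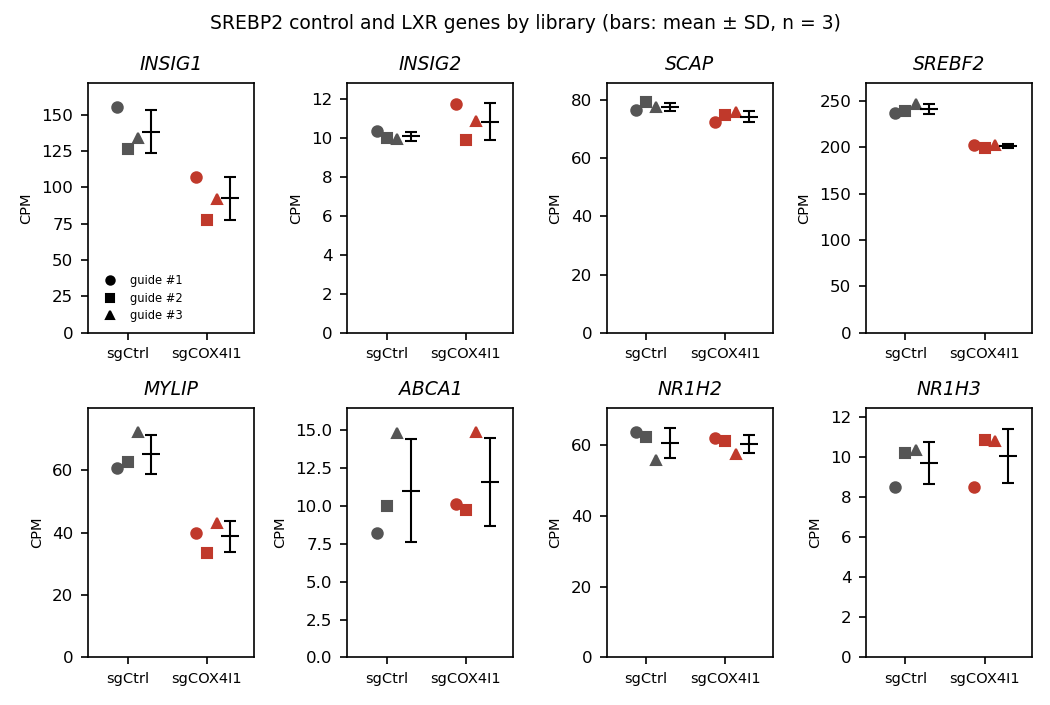
The plot of control and LXR genes by library gives CPM on a linear axis from 0 for INSIG1, INSIG2, SCAP and SREBF2 in the top row and MYLIP, ABCA1, NR1H2 and NR1H3 in the bottom row, with grey points for sgCtrl, red points for sgCOX4I1, one shape per guide number, and mean ± SD beside them (n = 3). Red and grey points are apart in INSIG1, SREBF2 and MYLIP, only narrowly apart in SCAP, and interleave in the other genes.

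Setting synthesis against the LXR and efflux genes, 16 of the 18 synthesis genes tested were lower and 2 were higher. Their median log2 fold change was -0.16, and 0 were called in the fit without a block of guide numbers. The 4 efflux genes tested had 2 lower and 2 higher (1 lower and 3 higher without TMM), with a median of 0.02 that does not show the fall of MYLIP. Libraries of one group differed in this respect. As the median log2 difference from the sgCtrl mean over the 18 synthesis genes, sgCtrl #1, #2 and #3 stood at 0.05, -0.03 and -0.09, and sgCOX4I1 #1, #2 and #3 at -0.01, -0.18 and -0.24. The sgCOX4I1 #1 library thus lay within the sgCtrl range, whereas sgCOX4I1 #2 and #3 lay below it. The number of synthesis genes below all sgCtrl libraries was 8, 11 and 12 of 18 in sgCOX4I1 #1, #2 and #3, beside 28.1%, 27.4% and 26.8% of all genes tested. In each of these libraries 2 of the 18 lay above all sgCtrl libraries, beside 29.0%, 29.3% and 27.2% of all genes. The #1 library was the highest of its group in 9 of 18 synthesis genes for sgCtrl and in 13 of 18 for sgCOX4I1, beside 38.4% and 35.8% of all genes tested. The direction count leans on sgCtrl #1, since without it 10 synthesis genes were lower and 8 were higher, at a median of -0.13. Without sgCOX4I1 #2 the split was 14 lower and 4 higher.

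**Figure D4:**
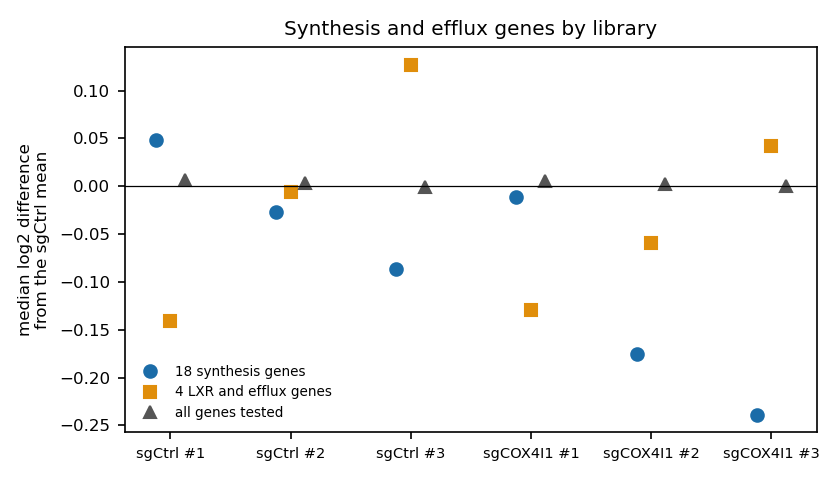
The plot of library medians gives, for each library, the median log2 difference from the sgCtrl mean (y axis) over the 18 synthesis genes (blue circles), the 4 LXR and efflux genes (orange squares) and all 11861 genes tested (grey triangles). Synthesis medians run from 0.05 in sgCtrl #1 to -0.24 in sgCOX4I1 #3. The LXR and efflux medians lie between -0.14 and 0.13 with the groups overlapping, and the medians of all genes stay near 0.

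Further genes of the pathway were taken from 4 lists of other sterol genes. Their calls stand beside 1.02% of all genes tested that were called lower and 1.06% called higher. Of 16 tested genes of SREBP processing and sterol sensing, 1 was called lower and 0 higher. This was SREBF1, which encodes SREBP1, the related factor that drives fatty acid synthesis and is also a target of LXR. SREBF1 measured 274, 288 and 261 CPM in sgCtrl #1, #2 and #3, compared with 198, 157 and 195 CPM in sgCOX4I1 #1, #2 and #3. Its groups were far apart, and the log2 fold change was -0.58 (SE 0.09, edgeR adjusted p = 0.00538). Among 18 tested genes of sterol transport and storage, 2 were called higher and 0 lower. LIPA, the lysosomal acid lipase that frees cholesterol from lipoprotein esters, measured 135, 139 and 178 CPM in sgCtrl #1, #2 and #3, compared with 188, 262 and 237 CPM in sgCOX4I1 #1, #2 and #3, a log2 fold change of 0.61 (adjusted p = 0.0257 by edgeR). SCARB2, a lysosomal membrane protein, measured 19.2 ± 1.4 CPM in sgCtrl and 29.3 ± 3.0 CPM in sgCOX4I1 (mean ± SD, n = 3), a log2 fold change of 0.61 (adjusted p = 0.0129 by edgeR).

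Of 14 tested LXR targets and partners, 1 was called higher and 0 lower. It was APOC1, a small apolipoprotein, at 2.78, 3.91 and 3.88 CPM in sgCtrl #1, #2 and #3, compared with 6.06, 8.89 and 6.36 CPM in sgCOX4I1 #1, #2 and #3, a log2 fold change of 1.00 (adjusted p = 0.0291 by edgeR). The APOC1 counts were low, at 51 to 199 per library. Another annotated gene of the same strand shares 40.7% of the exonic bases of APOC1, so reads could have been split between them or left out. Beside LIPA, SCARB2 and APOC1 stands LYZ, the lysozyme of myeloid granules in the marker list of the line, which measured 1149, 1520 and 2100 CPM in sgCtrl #1, #2 and #3, compared with 2026, 3022 and 3104 CPM in sgCOX4I1 #1, #2 and #3. The LYZ log2 fold change was 0.77 (adjusted p = 0.0534 by edgeR), and its part in the values of these 3 genes was not tested. The other markers of the line did not move with LYZ as a set, and none was called. Their log2 fold changes were 0.15 for CD33, -0.03 for PTPRC, -0.06 for SPI1, -0.12 for MEIS1, -0.21 for HOXA9 and -0.23 for FLT3. The isoprenoid branches use the products of the mevalonate pathway for ubiquinone, dolichol and protein prenylation. There 10 of 14 genes were higher, beside 49.4% of all genes tested, and 0 were called. The smallest p values there belonged to ICMT, which methylates prenylated proteins, NUS1, a subunit of the dolichol-forming enzyme, and COQ2, which attaches the ubiquinone tail, at log2 fold changes of 0.21, 0.18 and 0.22 and adjusted p of 0.188, 0.227 and 0.232 by edgeR. Names with small p but no call in the other lists were RNF145, a sterol-sensitive ubiquitin ligase, at -0.27, OSBPL5, a lipid transfer protein, at -0.28, and the LXR-linked genes TNFAIP3 at -0.26 and LPCAT3 at -0.22. These names were all lower, but their lists were not. In sterol transport and storage 12 genes were higher and 6 lower, with an unadjusted edgeR p under 0.05 for 6 higher and 1 lower. The same counts were 7 higher and 9 lower, with 1 and 4, in SREBP processing. They were 7 and 7, with 2 and 3, in LXR targets and partners. Over all genes tested, 8.9% were higher and 8.41% lower at an unadjusted edgeR p under 0.05. Without sgCtrl #2, 0 genes of the 4 lists were called, and without sgCOX4I1 #2 or sgCOX4I1 #3 the 1 call left was SREBF1.

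**Figure D5:**
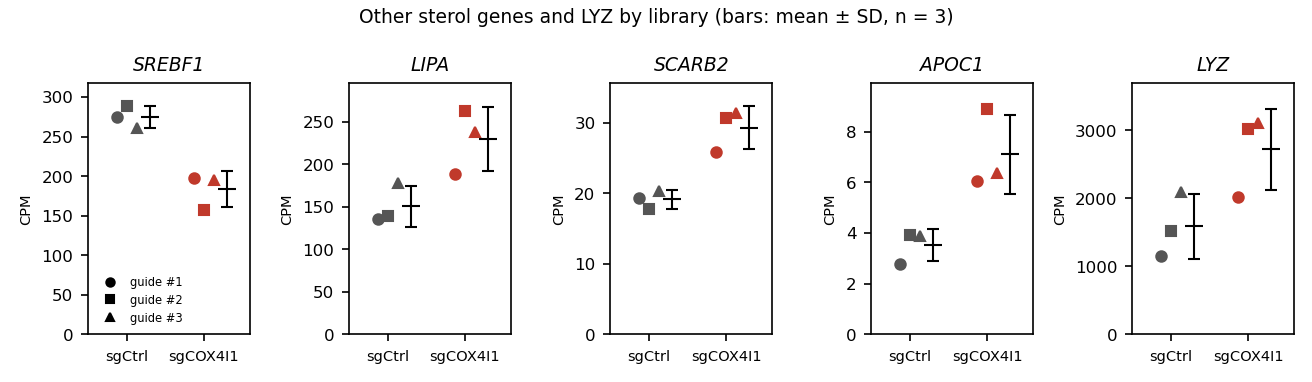
The plot of other sterol genes by library gives CPM on linear axes from 0 for SREBF1, LIPA, SCARB2, APOC1 and the marker LYZ, with grey points for sgCtrl, red points for sgCOX4I1, one shape per guide number, and mean ± SD beside them (n = 3). SREBF1 is lower in all red points, LIPA, SCARB2 and APOC1 are higher in all red points, and in LYZ the red point of guide #1 lies below the grey point of guide #3.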

How the data were processed

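RNA was sequenced from 6 Molm13-Cas9 libraries, 3 sgCtrl and 3 sgCOX4I1, grouped by the labels, and columns were matched to them by letter and guide number. The authors deposited raw read counts, as whole numbers, for 19845 gene symbols. Their processing notes list bcl2fastq 2.20.0.422, STAR 2.6.0a, edgeR and GRCh38, and the methods name Trimmomatic, Bowtie2 and RSEM instead. Column names carry the suffix of STAR alignments. The name of the count table points to HTSeq, which by default drops reads that fall on several genes. The count mode and annotation are not given in the sources used here.

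Total counts were 18590817, 18378107 and 20427900 in sgCtrl #1, #2 and #3, and 22417363, 17241014 and 30861943 in sgCOX4I1 #1, #2 and #3. Replicates differed by more than sampling noise (chi-square over its degrees of freedom between 11.0 and 27.5). Each library carried a different guide and so came from separately transduced cells. Whether these were handled in separate experiments is not stated in the labels, so p-values measure the spread between these libraries.

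Counts were tested in R 4.3.3 with edgeR 4.0.16 (TMM, filterByExpr, quasi-likelihood, no covariates), with Benjamini-Hochberg adjustment over 11861 genes and calls at an adjusted p under 0.05. A prior count of 2 was used for log2 values of single libraries. The test was first run on simulated data. Alternatives were DESeq2 1.42.0, limma-voom (limma 3.58.1), library size without TMM, no filter, at least 10 counts in every library, a block of guide numbers, and each library left out. Gene models came from GENCODE 44, which matched 18437 symbols.

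The members and lists were chosen with earlier results of these data known. Genes named were the 32 members, COX4I1 and, from each other list, called genes and those with the smallest p, up to 3. Values per library were given for called members, the smallest p of each step, and a set of SREBP2 and LXR genes, and for LSS, SC5D and LYZ, which were chosen after their values were seen. Some genes of the lists are not reported here.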

Additional observations from a re-analysis of the deposited data

How the results depend on the processing

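MYLIP was called in all 12 alternatives, at log2 fold changes from -0.83 to -0.65 and an adjusted p of at most 0.0440. The number of members called, 2 as reported, was 5 by DESeq2 (with FDPS, SQLE and SREBF2), 4 without a filter on low counts, and 1 (without sgCtrl #2, sgCOX4I1 #2 or sgCOX4I1 #3) to 4 (without sgCtrl #3) with a library left out. Genes called, 247 as reported, numbered 428 by DESeq2, 537 without a filter, and 24 (without sgCtrl #2) to 561 (without sgCtrl #1) with a library left out. With at least a 2-fold change, 24 as reported, there were 41 without a filter, and 9 (without sgCtrl #2) to 50 (without sgCtrl #3) with a library left out. Other pathway genes called, 4 as reported, ranged from 0 to 6 with a library left out. The cause was not tested.

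The median log2 fold change of the synthesis genes lay between -0.22 and -0.13 with a library left out. In the same fits that of the LXR and efflux genes lay between -0.082 and 0.066. Among single genes, 326 of 372 values kept their direction and side of the threshold, 22 passed it newly, 3 lost it and 21 changed sign. Sign changes came from leaving out a library, with ranges of -0.16 to 0.36 for ABCA1, -0.17 to 0.053 for DHCR7, -0.14 to 0.036 for FDFT1, -0.12 to 0.024 for HMGCS1, -0.087 to 0.054 for LBR, -0.073 to 0.082 for NPC2, -0.063 to 0.031 for NR1H2, -0.035 to 0.16 for NR1H3, -0.25 to 0.015 for NSDHL, -0.049 to 0.0047 for PMVK, -0.020 to 0.16 for SOAT1 and -0.17 to 0.038 for STARD4. NR1H2 also changed sign without TMM, at 0.0057.

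Deviations of same-numbered libraries correlated at 0.38, -0.02 and 0.29 for #1, #2 and #3. The #1 and #3 libraries correlated best with their own number, and the #2 libraries did not. Whether guide numbers pair the libraries, for example through a shared batch, is thus not settled. With the replicate block, 1408 of 11861 genes, 57 genes of at least 2-fold, 10 of the 30 members and 14 other pathway genes were called. Of the members, 9 were called lower, namely MVK, MVD, IDI1, FDPS, LSS, EBP, SREBF2, INSIG1 and MYLIP. SQLE was called higher. Over all genes the block gave 685 calls lower and 723 higher. CYP51A1 and ABCG1 had too few counts to be tested, and with 3 libraries a group an exact permutation test cannot give a p below 0.1.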
